A study of Mus musculus with 6 samples.

Results

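MHC class I molecules carry peptides from inside a cell to its surface, where CD8 T cells read them. The data described here are the mRNA levels of 10 genes of this pathway in Th9 cultures of mouse CD4+ T cells with and without Cul5. The genes are H2-K1, H2-D1, B2m, Tap1, Tap2, Tapbp, Calr, Pdia3, Erap1 and Nlrc5. They were taken by name and not by a rule on their measured values. Earlier results of these data were known when they were chosen. All 10 were found among the 11242 entries of the authors' gene-level table.

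There were 6 samples, all from C57BL/6 mice. In 3 samples, called WT, the mice carried a functional Cul5 gene. The study's methods give Cul5fl/fl littermates without Cre as its usual WT controls. In the other 3, called Cul5 cKO, the mice were Cul5fl/fl CD4-Cre, so that Cul5, the scaffold of a ubiquitin ligase, was deleted in T cells by a Cre that the CD4 promoter drives. The figure legend of the study gives mice 8 to 10 weeks old and, for the RNA sequencing, 1 experiment with n = 3 of each genotype. Naive CD4+ T cells from spleen and lymph nodes were stimulated in both groups with anti-CD3 at 2 µg/ml and anti-CD28 at 1 µg/ml. IL-4 at 20 ng/ml, TGF-β at 2.5 ng/ml and anti-IFN-γ at 10 µg/ml were present, and RNA was taken at 48 h. Nothing states that the 3 samples of a genotype came from separate mice, so p-values measure the spread between these samples, which may be technical. Anti-IFN-γ was given to both genotypes, and it neutralises an inducer of class I genes in the medium.

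The class I pathway works as a line of supply. Proteasomes cut proteins in the cytosol, and TAP, a pump made of Tap1 and Tap2, moves the peptides into the endoplasmic reticulum. There Erap1 trims them, while tapasin (Tapbp), calreticulin (Calr) and ERp57 (Pdia3) hold the empty heavy chain and its light chain β2-microglobulin (B2m) until a peptide fits. Nlrc5 is the transactivator that raises transcription of the heavy chains, B2m, the TAP subunits and the immunoproteasome. It acts at a promoter module in which an X2 box and a Y box stand a fixed distance apart.

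Promoters of 4 members are shown because they divide the members by the exact motif matches found in them. The windows cover 190 bases that end 1 base before the transcription start, from RefSeq on GRCm38.p6, and are written 5′ to 3′ on the strand of the gene. Capitals mark 4 motifs. They are enhancer A (GGGGATT followed at once by CCCC), the X2 core TGACG with the Y core ATTGG 20 bases after it, the interferon-stimulated response element (TTTCA, 1 base, TTTC) and the ER stress element (CCAAT, 9 bases, CCACG). The last was found in Calr, and the one before it in B2m, on the opposite strand.
H2-K1 (chr17:34000348-34000537, minus strand): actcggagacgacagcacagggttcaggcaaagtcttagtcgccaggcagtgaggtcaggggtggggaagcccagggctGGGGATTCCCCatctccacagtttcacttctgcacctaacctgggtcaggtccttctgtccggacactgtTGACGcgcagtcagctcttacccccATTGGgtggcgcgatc
H2-D1 (chr17:35262904-35263093, plus strand): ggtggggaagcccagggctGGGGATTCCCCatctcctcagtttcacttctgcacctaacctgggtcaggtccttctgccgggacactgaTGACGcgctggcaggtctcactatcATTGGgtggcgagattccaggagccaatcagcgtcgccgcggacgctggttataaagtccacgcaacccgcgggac
B2m (chr2:122147497-122147686, plus strand): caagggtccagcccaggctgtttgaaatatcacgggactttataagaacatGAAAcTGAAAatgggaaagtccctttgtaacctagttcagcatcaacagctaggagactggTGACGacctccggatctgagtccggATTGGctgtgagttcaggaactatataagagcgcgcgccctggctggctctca
Calr (chr8:84846932-84847121, minus strand): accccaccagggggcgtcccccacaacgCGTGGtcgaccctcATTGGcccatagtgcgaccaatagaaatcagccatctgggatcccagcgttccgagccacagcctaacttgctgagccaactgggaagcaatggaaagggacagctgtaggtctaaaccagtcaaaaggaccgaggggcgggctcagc

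RefSeq windows from 250 bases before the start to 50 after it were searched on both strands for 8 of the 10 members, all but Tap2 and Nlrc5. The X2 and Y cores 20 bases apart were found in the windows of H2-K1, H2-D1 and B2m, at -41, -101 and -78 from the start. Of the 32851 windows in the table, 0.0944% hold this spacing. Each core alone is common, since TGACG is in 20.8% and ATTGG in 37.4% of windows. The enhancer A motif, an NF-κB site of classical class I genes, was found in H2-K1 and H2-D1 and in 0.0304% of windows. An exact match to the interferon-stimulated response element was found in B2m and Erap1, at -139 and -4, and in 0.791% of windows. The printed H2-K1 and H2-D1 sequences hold a near match, tttcacttct, after enhancer A. It departs from the searched letters and was not counted, so the search does not show that these genes lack such an element. The ER stress element was found in Calr alone among the members, at -162, and in 0.119% of windows. The X2 and Y spacing contains the shorter X2 and Y motifs by construction, and the ER stress element contains the Y core on its other strand. A match is a description of letters and was not tested as a binding site.

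Cul5 itself was at 64.4, 69.3 and 65.0 CPM (counts scaled to library size) in WT samples 1 to 3 and at 10.6, 14.2 and 13.1 CPM in Cul5 cKO samples 1 to 3. Every Cul5 cKO sample lay below every WT sample. The log2 fold change, Cul5 cKO over WT, was -2.39 ± 0.11 (SE; adjusted p = 0.000992 in edgeR's quasi-likelihood test, with p-values adjusted by Benjamini and Hochberg's method). The libraries held between 23111689 and 23454552 estimated counts, except for WT replicate 3 with 3944803. Replicate 1 of both genotypes stood apart, since WT and Cul5 cKO replicate 1 differed less from each other (pairwise dispersion 0.0181) than WT replicate 1 did from WT replicate 2 (0.0313). The 7 markers of CD4 T cells summed to 1623, 1746 and 1755 CPM in WT and to 1465, 1568 and 1551 in Cul5 cKO, without overlap. All 7 had a negative fold change, 5 of them without overlap of the samples, beside 13.5% of all genes tested. Cd28, a costimulatory receptor, was called lower (log2 fold change -1.17, SE 0.15, adjusted p = 0.0205 in edgeR), beside 0.418% of all genes. The part of these markers in the members' values was not tested. The 5 B cell markers summed to 48.0 CPM in Cul5 cKO replicate 3 and to between 6.47 and 19.2 CPM in the others. The 8 myeloid and dendritic cell markers summed to 17.6 CPM in Cul5 cKO replicate 2 and to between 6.53 and 11.5 CPM in the others. In bulk RNA, fewer cells of a type and less RNA per cell cannot be told apart.

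All 10 members passed the filter on low counts. In the test over 12925 genes, 0 of the 10 were called at an adjusted p under 0.05, beside 1.03% of all genes tested (0.611% higher and 0.418% lower, edgeR quasi-likelihood test). At an unadjusted p under 0.05, 1 member was higher in Cul5 cKO (Calr) and 1 was lower (Tapbp), beside 10.9% and 10.4% of all genes. DESeq2 called 1 member, Tapbp, beside 5.94% of all genes it tested. The count from limma was 0 on TPM, beside 0.209% and 0.232% of genes with pseudocounts of 1 and 0.1, and 0 on the gene-level table, beside 0.374%. The sample ranges did not overlap for 2 members. Pdia3 lay higher in every Cul5 cKO sample, as 14.0% of all genes did, and Tapbp lay lower, as 13.5% did. The fold changes of the members had a median of 0.09 on the log2 scale, from -0.45 for Tapbp to 0.35 for Calr, beside a median of -0.01 over all genes.

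**Figure D1:**
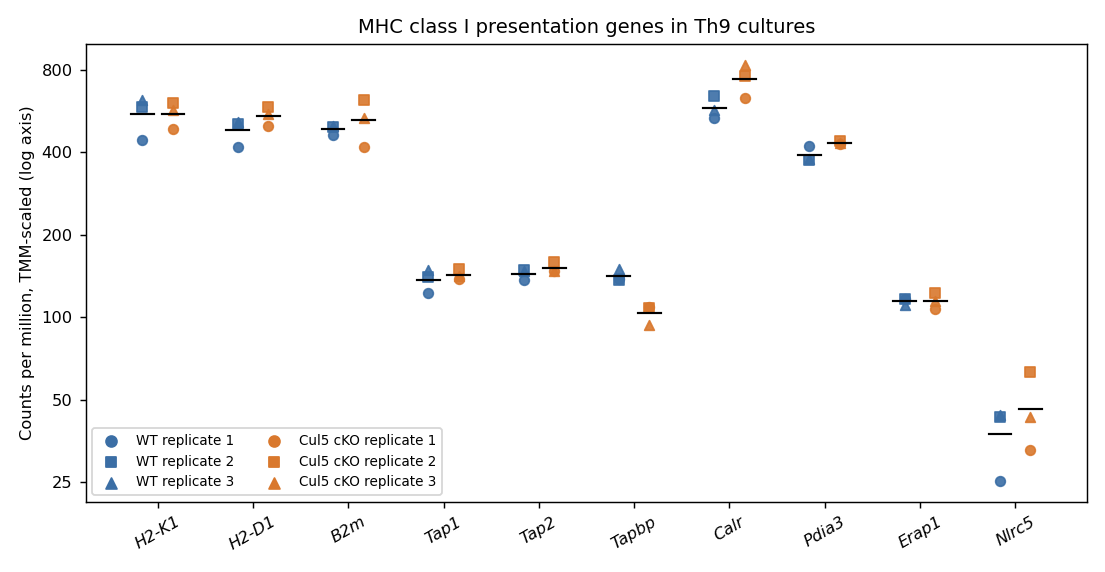
CPM (log axis) of the 10 members in 3 WT (blue) and 3 Cul5 cKO (orange) samples, with the marker shape giving the replicate number and black lines the group means. Tapbp lies between 136 and 150 CPM in WT and between 93.6 and 109 in Cul5 cKO, and Nlrc5 lies lowest in replicate 1 of both genotypes.

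Per unit of length, H2-K1 and B2m were the most abundant members. In TPM, in which counts are scaled to transcript length and depth, WT samples had 1158 ± 279 for H2-K1 and 1025 ± 57.4 for B2m (SD, n = 3), and the ranges of these neighbours overlapped. Calr (420 ± 50.7 TPM) and H2-D1 (379 ± 48.7 TPM) came next and overlapped too. Pdia3 stood alone at 249 ± 54.9 TPM. Tapbp at 104 ± 15.9, Tap2 at 99.6 ± 9.89, Tap1 at 80.6 ± 16.5 and Erap1 at 61.2 ± 8.35 TPM followed, each overlapping its neighbour in that order. Nlrc5 was lowest, at 14.9 ± 5.47 TPM, below all samples of Erap1. In Cul5 cKO, B2m (1082 ± 206 TPM) and H2-K1 (1006 ± 72.2 TPM) overlapped again. Tapbp, at 70.7 ± 14.8 TPM, stood after Tap2 and Tap1 there, and its range overlapped that of Tap1.

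The TPM of WT replicate 3 carries a further limit. Estimated counts are split over the transcripts of a gene, and in this shallow library the split differed from the other 5. The leading transcript of H2-K1 held 27.8% of the gene's counts there and between 59.1% and 62.6% elsewhere. For Pdia3 it held 84.7% there and at least 99.7% elsewhere, and the gene's TPM was 312 in that library against 210 in the lowest WT sample. Of the 9 members with more than 1 transcript, 6 had their lowest leading share in WT replicate 3. The sums of counts per gene do not depend on this split within a gene, and they are the base of the tests.

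The classical heavy chains are H2-K1 and H2-D1, which present peptides to CD8 T cells, with B2m as their light chain. H2-K1 (chr17:33996017-34000347, minus strand) was at 443, 587 and 618 CPM in WT and at 487, 603 and 572 in Cul5 cKO. The groups overlapped, and replicate 1 was lowest in both. Cul5 cKO over WT, the log2 fold change came to 0.01 ± 0.14 (SE; edgeR adjusted p = 0.970), and its sign turned under library size scaling alone, to -0.03, and in replicates 2 and 3 alone, to -0.03.

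H2-D1 (chr17:35262730-35267499, plus strand) was at 420, 507 and 514 CPM in WT and at 498, 584 and 552 in Cul5 cKO. Only Cul5 cKO replicate 1 fell within the WT range. The log2 fold change of 0.18 (SE 0.10) had an adjusted p of 0.331 in the edgeR test. B2m (chr2:122147686-122153083, plus strand) was at 462, 494 and 500 CPM in WT, and at 418, 620 and 533 in Cul5 cKO, whose samples held both the lowest and the highest value. Its log2 fold change was 0.11 ± 0.13 (SE; edgeR adjusted p = 0.672), and -0.02 without Cul5 cKO replicate 2.

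Heavy chain genes resemble each other, so reads can be split between them. Of the 50-base words in H2-K1 transcripts, 9.63% also occur in another gene, and for H2-D1 the share is 12.8%, with 141 words common to both. B2m and Nlrc5 share none. The 4 further H2 genes that share words with both and hold at least 5% of the counts of H2-K1 were H2-Q7 (11.9%), H2-Q4 (11.8%), H2-T23 (12.5%) and H2-T22 (11.7%). Pooled over 16 H2 class I genes, the level was 1366 ± 235 CPM in WT samples and 1402 ± 176 in Cul5 cKO samples (SD, n = 3). The pooled log2 fold change was 0.04 ± 0.14 (SE; edgeR adjusted p = 0.910).

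The TAP subunits form the peptide pump, and their genes are neighbours in the MHC. Tap1 (chr17:34187553-34197225, plus strand) was at 123, 140 and 149 CPM in WT and at 138, 150 and 142 in Cul5 cKO. This gave a log2 fold change of 0.07 ± 0.08 (SE; edgeR adjusted p = 0.693), with overlapping groups. Tap2 (chr17:34203527-34216321, plus strand) was at 137, 148 and 148 CPM in WT and at 147, 159 and 148 in Cul5 cKO. Its log2 fold change was 0.07 ± 0.07 (SE; edgeR adjusted p = 0.579), and the groups overlapped. On the TPM scale both values were negative, -0.11 and -0.07 with a pseudocount of 1 (limma), so no direction is given for the pump. Tap1 shares 3.33% of its words, most of them with Psmb9, its neighbour on the other strand.

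Tapasin bridges TAP and the heavy chain. Tapbp (chr17:33915899-33929292, plus strand) was at 137, 136 and 150 CPM in WT and at 109, 108 and 93.6 CPM in Cul5 cKO. All 3 Cul5 cKO samples were below all 3 WT samples. The means were 141 ± 7.44 and 103 ± 8.55 CPM (SD, n = 3), a ratio of 0.733. The log2 fold change was -0.45 (SE 0.08), with an unadjusted p of 0.000784 and an adjusted p of 0.0599 in the edgeR quasi-likelihood test, just short of the threshold. An exact permutation test over the samples gave p = 0.1, the smallest that 3 against 3 allows.

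The call for Tapbp turned with the test. It was past the threshold with DESeq2 (adjusted p = 0.000621), with libraries thinned to the depth of WT replicate 3 (0.0361), without a filter on low counts (0.0433), and in replicates 2 and 3 alone (0.0318), all with Benjamini-Hochberg adjustment over all genes. Leaving out 1 sample at a time gave log2 fold changes between -0.48 and -0.38, none of them past the threshold. It was also short of the threshold with counts scaled from TPM (-0.505, adjusted p = 0.218, edgeR). With limma on TPM the adjusted p was 0.23 and 0.231 for pseudocounts of 1 and 0.1.

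**Figure D2:**
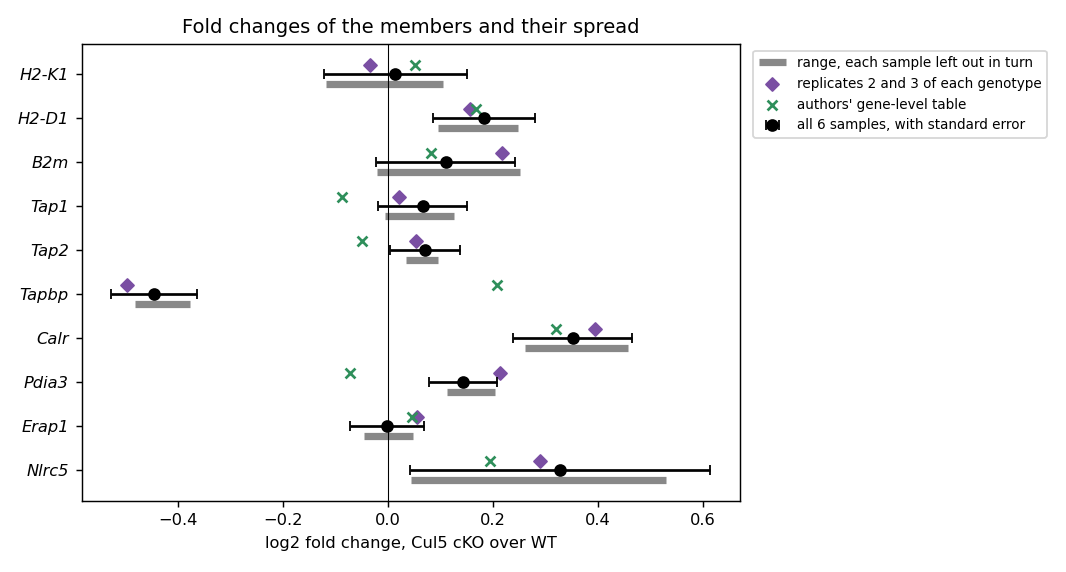
log2 fold change, Cul5 cKO over WT, of each member with its standard error (black), the range when each sample is left out in turn (grey), replicates 2 and 3 of each genotype (purple) and the authors' gene-level table (green). Tapbp is at -0.45 and Calr at 0.35, with grey ranges that stay on 1 side of 0. The grey ranges of H2-D1, Tap2, Pdia3 and Nlrc5 do so too, and the table puts Tapbp at 0.21.

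The gene-level table gave a different level for Tapbp. In the table it stood at 37.77, 30.03 and 9.94 CPM in WT and at 30.04, 23.94 and 24.08 CPM in Cul5 cKO, and the fold change there was 0.21 on the log2 scale (adjusted p = 0.836, limma). The table lies closest to sums that leave out transcripts with later Ensembl numbers. Tapbp has 9 transcripts, and the 4 left out under that rule include Tapbp-206, which held between 70.4% and 80.1% of the gene's counts in each of the 6 samples. Sums without these 4 gave 33.8, 26.2 and 11.7 CPM in WT and 25.1, 20.1 and 22.6 CPM in Cul5 cKO. WT replicate 3 was the lowest of the 6 samples in these sums and in the table, and the highest in the sum over all 9 transcripts. In a fit that left out transcripts by that rule, the log2 fold change of Tapbp was -0.153 (adjusted p = 0.823, edgeR).

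Such transcripts also held between 22.1% and 44.1% of the counts of H2-K1 and between 43.3% and 82.3% of those of Nlrc5. The rule does not cover every difference from the table. Pdia3 and Tap1 have no transcript left out by it. In WT replicate 3 they stood at 595 and 196 CPM in the table, against 379 and 149 CPM in the sums. The source of this difference was not tested. For Tapbp, 2.24% of words occur in other genes, among them the neighbouring Zbtb22. The annotation places an antisense gene, Gm19412, over Tapbp, and the counting is not stated to use strand. How many reads they share was not measured.

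**Figure D3:**
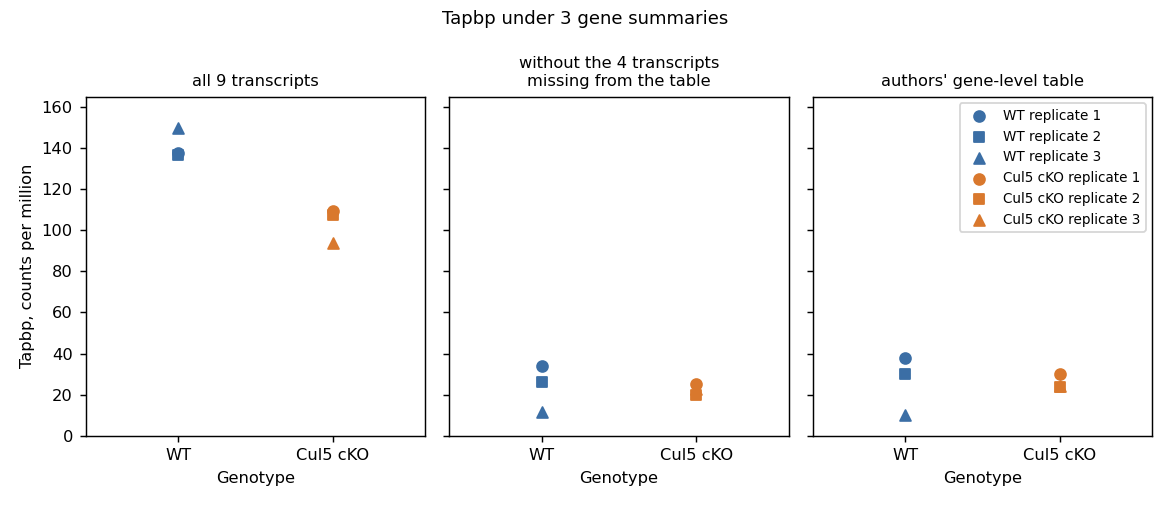
Tapbp in CPM in 3 WT (blue) and 3 Cul5 cKO (orange) samples under 3 ways of summing transcripts. WT lies above Cul5 cKO when all 9 transcripts are summed, while WT replicate 3 falls to 11.7 CPM without the 4 transcripts and stands at 9.94 CPM in the table.

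Calreticulin and ERp57 are the general chaperones of the loading complex, and both also fold other glycoproteins. Calr (chr8:84841850-84846934, minus strand) was at 532, 643 and 570 CPM in WT and at 634, 759 and 835 in Cul5 cKO. The groups overlapped by 1 pair, as Cul5 cKO replicate 1 lay just below WT replicate 2. The means were 582 ± 56.2 and 743 ± 102 CPM (SD, n = 3), and the log2 fold change was 0.35, with a standard error (SE) of 0.11, an unadjusted p of 0.0166 and an adjusted p of 0.152 (edgeR). In replicates 2 and 3 alone it was 0.40 and past the threshold (adjusted p = 0.0431, edgeR). Leaving out each sample gave between 0.26 and 0.46, none past the threshold.

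Pdia3 (chr2:121413775-121438687, plus strand) was at 422, 374 and 379 CPM in WT and at 427, 438 and 433 in Cul5 cKO. The groups did not overlap, with the nearest samples at 422 and 427 CPM. The log2 fold change of Pdia3 was 0.14 ± 0.06 (SE; edgeR adjusted p = 0.254). On the TPM scale with a pseudocount of 1 it was -0.09 (limma), the scale on which WT replicate 3 stood at 312 TPM.

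Erap1, the aminopeptidase that trims peptides to the length class I holds (chr13:74639568-74693201, plus strand), was at 116, 116 and 111 CPM in WT and at 107, 122 and 114 in Cul5 cKO. The groups overlapped fully. The log2 fold change was 0.00 ± 0.07 (SE; edgeR adjusted p = 0.992), with means of 114 ± 2.90 and 114 ± 7.65 CPM. Erap1 shares 10.7% of its words with Cast, and reads there could be assigned to either.

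Nlrc5, the transactivator (chr8:94434356-94527272, plus strand), was at 25.3, 43.2 and 44.0 CPM in WT and at 32.7, 63.0 and 43.2 CPM in Cul5 cKO. Replicate 1 was lowest in both genotypes, and the groups overlapped. The log2 fold change of 0.33 (SE 0.29) was near its standard error and had an adjusted p of 0.548 in the edgeR test. Leaving out each sample gave between 0.04 and 0.53. Without the transcripts that the gene-level table leaves out, the Nlrc5 value was 0.62 (adjusted p = 0.251, edgeR). On TPM with a pseudocount of 1 it was 0.13 (limma).

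The replicate number moved with the class I genes. Replicate 1 was the lowest sample of both genotypes for 7 of the 10 members, H2-K1, H2-D1, B2m, Tap1, Tap2, Calr and Nlrc5, beside 2849 of all 12925 genes. It was the highest of both for 0 of the 10, beside 3027 of all genes. Of the 14 tested genes in the list of other class I and class I-like molecules, 9 had replicate 1 lowest in both genotypes. In 1 gene of that list replicate 1 was highest in both. H2-Q7, a non-classical class I gene, was at 40.6, 90.2 and 105 CPM in WT and at 35.0, 84.4 and 66.0 CPM in Cul5 cKO. H2-Q4 was at 46.6, 82.5 and 88.6 CPM in WT and at 42.0, 83.0 and 61.2 CPM in Cul5 cKO. What replicate 1 stands for is not given in the sources used here, and its part in these levels was not tested.

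Across the 6 samples, the Pearson correlation of log2 CPM with Nlrc5 was 0.95 for Tap2, 0.93 for H2-D1, 0.90 for Tap1, 0.90 for H2-K1 and 0.84 for B2m. It was -0.29 for Tapbp, -0.02 for Pdia3, 0.50 for Erap1 and 0.66 for Calr. These values describe 6 samples that share 2 genotypes and the replicate 1 difference, and no test was made. The X2 and Y cores at the fixed distance were found in H2-D1, H2-K1 and B2m. They were not found in Tap1, whose value of 0.899 lay above those of H2-K1 (0.895) and B2m (0.844). No window was searched for Tap2, the highest. A link between the motif and these values was not tested.

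**Figure D4:**
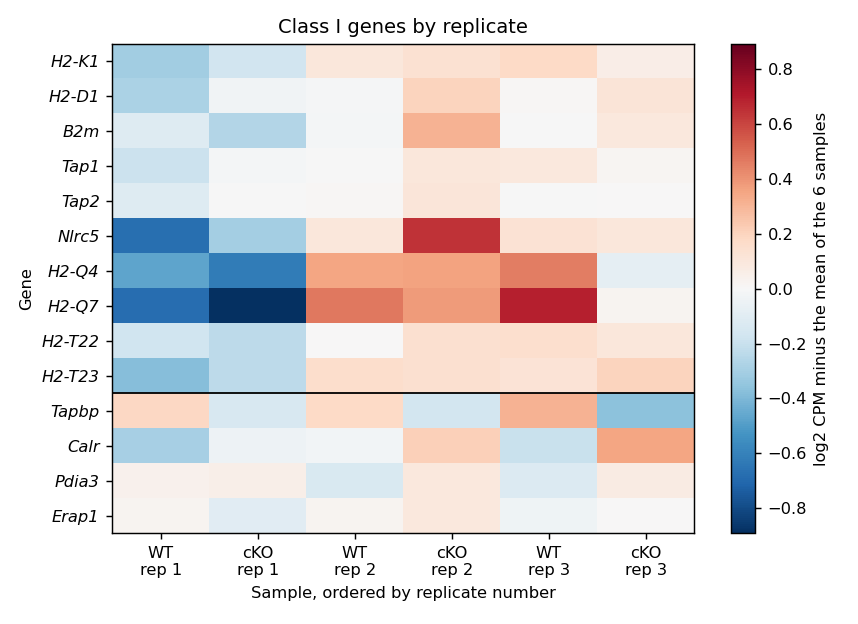
log2 CPM of class I genes minus the mean of the 6 samples, with samples ordered by replicate number and a line that sets Tapbp, Calr, Pdia3 and Erap1 apart. Above the line, replicate 1 is the lowest of its genotype for all 10 genes, in WT and in Cul5 cKO, and H2-Q7 and Nlrc5 span the widest range.

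By the likeness of their log2 CPM over the 6 samples to the members' mean, the 5 nearest of 8684 other genes were Xylt1 (Pearson r 0.991), Rnf149 (0.989), Camkk2 (0.988), Shq1 (0.987) and C920009B18Rik (0.985). The median over those genes was 0.009. All 5 had their lowest value in WT replicate 1 and their second lowest in Cul5 cKO replicate 1.

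Other genes of the endoplasmic reticulum fold and load glycoproteins beside Calr and Pdia3. Of the 15 in this list, all tested, 0 were called after adjustment, 14 had a positive fold change beside 48.8% of all genes, and 9 were higher at an unadjusted p under 0.05 beside 10.9% (edgeR quasi-likelihood test). Over the list the median was 0.20 on the log2 scale. DESeq2 called 1 of the 15, beside 5.94% of all genes, and edgeR called 6 in replicates 2 and 3 alone, all higher, beside 8.83%. Without Cul5 cKO replicate 3, 14 values were positive and 2 genes were higher at an unadjusted p under 0.05, and without WT replicate 3 the counts were 14 and 2 as well.

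Hspa5, which encodes the chaperone BiP, had the highest mean TPM of the list over all 6 samples, though not within WT, where Canx and Hsp90b1 stood higher. It was at 344, 365 and 353 CPM in WT and at 370, 453 and 548 in Cul5 cKO, without overlap. Its log2 fold change was 0.37 ± 0.13 (SE; edgeR adjusted p = 0.177), and 0.22 without Cul5 cKO replicate 3. Pdia6, a disulfide isomerase, was at 36.3, 21.8 and 10.4 CPM in WT and at 31.8, 44.0 and 38.1 CPM in Cul5 cKO, a log2 fold change of 0.65 ± 0.34 (SE; edgeR adjusted p = 0.331) with overlapping groups. The value for Pdia6 was 1.11 without WT replicate 1 and 0.39 without WT replicate 3. The ER stress element stood in the promoter windows of Hspa5, Pdia6, Hsp90b1 and Canx, 4 of the 12 genes of the list with a window, as in that of Calr shown above.

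**Figure D5:**
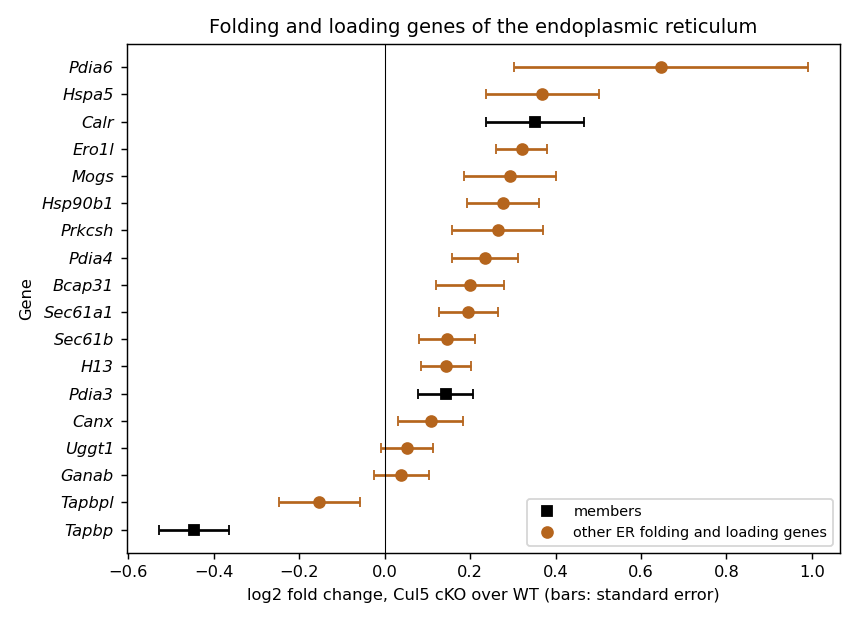
log2 fold change, Cul5 cKO over WT, with standard errors, of 15 endoplasmic reticulum folding and loading genes (brown circles) and of the members Calr, Pdia3 and Tapbp (black squares). All but Tapbpl and Tapbp lie above 0, with Calr at 0.35 and Tapbp at -0.45.

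In a list of proteasome and peptidase genes, 17 were tested. Lap3, leucine aminopeptidase, which shortens peptides in the cytosol, was the 1 called gene, beside 1.03% of all genes tested. It was at 61.6, 63.3 and 62.5 CPM in WT and at 78.6, 86.6 and 91.5 CPM in Cul5 cKO. The groups stood clear of each other. Its log2 fold change was 0.45 ± 0.07 (SE; edgeR adjusted p = 0.0433), and the groups' difference was not called under several alternatives. With libraries thinned to 1 depth it was 0.45 (adjusted p = 0.0845, edgeR), and on leaving out any sample but Cul5 cKO replicate 1 it was not called and lay between 0.405 and 0.467. Without the transcripts that the gene-level table leaves out it was 0.44 (adjusted p = 0.0704, edgeR). It was smaller, and not called, with counts scaled from TPM (0.29), with limma on TPM (0.23 with either pseudocount) and on the gene-level table (0.25). Psmb8, an immunoproteasome subunit and the most abundant of the list in TPM, was at 275, 231 and 236 CPM in WT and at 296, 278 and 282 in Cul5 cKO. Its log2 fold change was 0.20 ± 0.08 (SE; edgeR adjusted p = 0.208). In the list, 12 genes had a positive value and 5 a negative one, with a median of 0.14. At an unadjusted p under 0.05, 5 were higher and 1 was lower (edgeR), beside 10.9% and 10.4% of all genes. Every Cul5 cKO sample lay above every WT sample for 7 genes and below for 0, beside 14.0% and 13.5% of all genes.

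Of the other class I and class I-like genes, 14 of 20 were tested and 0 were called, 5 with a positive and 9 with a negative value (median -0.20). The median was 0.01, with 8 of 14 positive, without Cul5 cKO replicate 1, -0.05 without WT replicate 3, -0.12 without WT replicate 2, -0.37 without WT replicate 1 and -0.33 without Cul5 cKO replicate 2, so no direction is given for the list. Unadjusted, 2 were lower at p under 0.05 and 0 were higher (edgeR), beside 10.4% and 10.9% of all genes. Cd1d1, which presents lipids rather than peptides, had the largest change at a level of at least 1 CPM, with 4.84 ± 1.82 CPM in the WT samples and 2.16 ± 0.75 in those of Cul5 cKO (SD, n = 3), on 27 to 103 counts a library. Its log2 fold change was -1.10 ± 0.36 (SE; edgeR adjusted p = 0.156). H2-T23, which encodes Qa-1 and was the most abundant of the list in TPM, had a log2 fold change of 0.07 ± 0.17 (SE; edgeR adjusted p = 0.846), and H2-T22 one of 0.03 ± 0.12 (SE; edgeR adjusted p = 0.928).

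All 16 regulators of class I transcription were tested and 0 were called, with 8 positive and 8 negative values (3 and 13 by library size alone). Unadjusted, 1 was higher and 4 were lower at p under 0.05 (edgeR), beside 10.9% and 10.4% of all genes. Irf2, an interferon regulatory factor, was at 26.7, 30.1 and 39.0 CPM in WT and at 22.9, 24.01 and 19.8 CPM in Cul5 cKO, with a log2 fold change of -0.49 ± 0.15 (SE; edgeR adjusted p = 0.136). Rfxank, a subunit of the RFX complex that binds the X box, was at 17.6, 18.1 and 22.8 CPM in WT and at 14.4, 14.9 and 13.5 CPM in Cul5 cKO, with a log2 fold change of -0.43 ± 0.12 (SE; edgeR adjusted p = 0.124). Nfkb1, an NF-κB subunit and the most abundant of the list in TPM, had a log2 fold change of 0.33 ± 0.10 (SE; edgeR adjusted p = 0.129), and DESeq2 called it (0.34, adjusted p = 0.0415), the 1 regulator that it called. For these 3 genes the sample ranges did not overlap. Of all genes, 14.0% lay higher in every Cul5 cKO sample and 13.5% lay lower.

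Interferon-γ is the main inducer of class I genes through its receptor and the kinases Jak1 and Jak2. Of 7 genes of this pathway, 0 were called. At an unadjusted p under 0.05, 2 were higher and 1 was lower (edgeR), beside 10.9% and 10.4% of all genes. Ifng itself was at 0.13, 0.82 and 0.25 CPM in WT and at 0.09, 1.45 and 4.45 CPM in Cul5 cKO, on 1 to 100 counts a library. Its groups overlapped and the adjusted p was 0.347 (edgeR). Ifngr1 had a log2 fold change of -0.27 ± 0.14 (SE; edgeR adjusted p = 0.315). Jak1, the most abundant of the list in TPM over all 6 samples but below Socs1 in Cul5 cKO, was at 407, 413 and 441 CPM in WT and at 381, 350 and 331 in Cul5 cKO, without overlap, and had a log2 fold change of -0.25 ± 0.07 (SE; edgeR adjusted p = 0.124).

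Class II molecules, which B cells and dendritic cells express, present peptides to CD4 T cells. All 10 genes in the list, which covers these molecules and their loading and regulation, were tested and 0 were called. At an unadjusted p under 0.05, 2 were higher and 1 was lower (edgeR), beside 10.9% and 10.4% of all genes. The list had a median of 0.78 on the log2 scale. That median was 0.04, with 5 of 10 positive, without Cul5 cKO replicate 3. H2-Aa was at 7.26, 5.80 and 5.82 CPM in WT and at 0.17, 12.3 and 53.8 CPM in Cul5 cKO. H2-Ab1 was at 7.73, 5.02 and 5.06 CPM in WT and at 5.04, 12.97 and 44.6 CPM in Cul5 cKO. Both were highest in Cul5 cKO replicate 3, the library in which the B cell markers summed to 48.0 CPM. In Cul5 cKO replicate 2 both also lay above every WT sample. There the B cell markers summed to 9.86 CPM, below every WT sample. The myeloid and dendritic cell markers were highest there, at 17.6 CPM. The part of B cells or of myeloid and dendritic cells in the class II values was not tested. H2-DMa, the most abundant of the list in TPM, was at 104, 126 and 143 CPM in WT and at 98.5, 126 and 112 CPM in Cul5 cKO. Of the 10 members, only Calr had its highest value in Cul5 cKO replicate 3, at 835 CPM.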

How the data were processed

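Poly-A RNA was sequenced by the authors in single-end reads of 50 bases and pseudo-aligned with kallisto 0.46.2 to Ensembl's GRCm38 transcripts. Per sample, the authors deposited estimated counts, not normalized, and TPM for 119414 transcripts. A table by gene, also deposited, holds log2 CPM after TMM scaling in edgeR 3.34.0. That table's own fold changes and p-values for each gene were not used. Transcripts were matched to genes of GENCODE vM21 for GRCm38 (116640, 97.7%), and between 0.958% and 1.04% of a sample's counts had no match. Estimated counts were summed per gene, rounded, filtered with filterByExpr and scaled by TMM. Cul5 cKO was tested against WT with edgeR 4.0.16 (quasi-likelihood) and Benjamini-Hochberg adjustment over all 12925 genes, in R 4.3.3. The biological coefficient of variation was 16.1%. DESeq2 1.42.0 and limma 3.58.1 gave alternatives. The script was tested on simulated data.

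The members and lists were chosen with earlier results of these data known. Genes named beside the members were the called genes of each list, or else the 2 with the largest change at 1 CPM or more, and the one highest in TPM. H2 genes that share 50-base words with H2-K1 or H2-D1 at 5% of its counts or more, and the 5 genes most like the members' mean among those with at least 10 CPM, were also named. A few members of lists outside this rule (Tapbpl, Hsp90b1, Canx and Socs1) and the marker Cd28 were named after their values were seen.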

Additional observations from a re-analysis of the deposited data

How the results depend on the processing

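The count of called genes over all genes, 133, was 693 with DESeq2, 228 with no filter, 62 with counts scaled from TPM, 27 and 30 with limma on TPM after a pseudocount of 1 and of 0.1, and 42 with limma on the gene-level table. It was 1688 with replicate 1 as a term, 1153 in replicates 2 and 3 alone, 2753 at an unadjusted p under 0.05, and 80 without the transcripts that the table leaves out, an alternative chosen after seeing the data. Leaving out 1 sample gave between 2 and 316, namely 2 for WT replicate 2 and for WT replicate 3, 3 for Cul5 cKO replicate 3, 45 for Cul5 cKO replicate 2 and 316 for WT replicate 1. The count of called members, 0, was 1 with DESeq2, no filter or thinned libraries (Tapbp), and 2 with replicate 1 as a term, in replicates 2 and 3 alone and at an unadjusted p (Tapbp and Calr). It was 0 on leaving out each sample. The cause of these shifts was not tested.

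With the replicate number as a block, 848 genes and 2 members (Tapbp and Calr) were called, and so was Nfkb1 (adjusted p = 0.0402, and 0.0164 with replicate 1 as a term, edgeR). The deviations of same-numbered samples correlated at 0.542, 0.46 and -0.007 for numbers 1, 2 and 3, so that the numbers were not shown to pair the samples, and not every sample correlated best with its own number.

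Signs turned for 11 genes under some alternative. H2-K1 turned to -0.030 (library size alone), -0.145 (scaled from TPM), -0.176 and -0.176 (limma on TPM with either pseudocount) and -0.034 (replicates 2 and 3). Tap1 turned to -0.065, -0.107 and -0.108, Tap2 to -0.020, -0.069 and -0.070, and Pdia3 to -0.059, -0.092 and -0.092 on the same 3 TPM settings. On the gene-level table, Tap1 was at -0.088, Tap2 at -0.050, Pdia3 at -0.072, Tapbp at 0.207, Erap1 at 0.045 and H2-Aa at -0.274. H2-Aa was at -0.354 on TPM with a pseudocount of 0.1, and H2-T22 at -0.017 by library size alone. Erap1, at -0.002, turned to 0.002 with DESeq2 size factors and with at least 10 counts in every sample, 0.017 with no filter, 0.056 in replicates 2 and 3, 0.018 with thinned libraries and 0.012 without the transcripts the table leaves out. Leaving out each sample, the range was -0.118 to 0.105 for H2-K1, -0.022 to 0.252 for B2m, -0.006 to 0.126 for Tap1, -0.045 to 0.048 for Erap1, -0.090 to 0.198 for H2-T23, -0.021 to 2.37 for H2-Aa, -0.469 to 0.017 for H2-Q4 and -0.053 to 0.141 for H2-T22. Of 29 genes followed, 18 kept their sign under every alternative that gave a value, among them Calr, H2-D1 and Nlrc5. The shallow WT replicate 3, with 3944803 counts, limits the precision of genes as low as Nlrc5 and Cd1d1.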
